A study of Mus musculus with 15 samples.

Results

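The genes described here are 52 genes of the lysosome: hydrolases and their cofactors, the cathepsins among them, membrane proteins, subunits of the vacuolar proton pump (V-ATPase) and the transcription factors of the MiT/TFE family. They were taken by symbol from the matrix of raw counts, which holds 53465 mouse Ensembl gene identifiers, and every one of the 52 symbols matched a row. By role they comprised 11 cathepsins, 12 glycosidases or sulfatases, 4 genes of sphingolipid breakdown, 4 further proteases, thioesterases or cofactors, 6 membrane proteins, 12 V-ATPase genes and 3 transcription factors.

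The cells were bone marrow-derived macrophages (BMDMs), obtained by culturing mouse marrow for 7 days with 20 ng/ml of the growth factor M-CSF in 10% serum. According to the methods of the study, the mice were 8 to 12 weeks old in all 5 groups, control included. The 5 groups were an untreated control, IL-4, IL-4+IL-6, IL-13 and IL-6+IL-13, each for 24 h and each with 3 libraries, 15 in all. Both groups with IL-4 received 10 ng/ml of it, and IL-6 was added to it at 40 ng/ml. For the sequenced cells of IL-13 and IL-6+IL-13 the doses are not given in the sources used here. A dose of 40 ng/ml for IL-13 is stated for other assays of these cells only. There was no group with IL-6 alone, and the strain is not given in the sources used here. The design asks how each type 2 cytokine changes these genes relative to control, and how co-addition of IL-6 changes them on top of IL-4 or IL-13.

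Lysosomes break down proteins, glycans and lipids that reach them by phagocytosis, endocytosis or autophagy. The V-ATPase, with a V0 sector in the membrane and a V1 sector in the cytosol that hydrolyzes ATP, acidifies the lumen, which the cathepsins and other hydrolases need for their activity. Transcription factors of the MiT/TFE family, TFEB, TFE3, MITF and TFEC, bind E-box motifs, which stand in the promoters of many of these genes. TFEB and TFE3 are held in the cytosol when mTORC1 is active.

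Summed counts per library were between 17001352 and 18918686. Normalized CPM (counts scaled to library size with TMM factors) were used to follow one gene across libraries, and FPKM, which divides by gene length, to set genes side by side. Libraries of 1 group were not equally alike: the biological coefficient of variation was 4.49% in control, 4.54% in IL-4, 7.38% in IL-6+IL-13, 10.9% in IL-13 and 14.9% in IL-4+IL-6. Replicate 2 of IL-4+IL-6 and replicate 1 of IL-13 stood apart from the other libraries of their groups. The labels were checked on known cytokine targets: Mrc1, the mannose receptor gene, was 196 ± 6.43 CPM in control (SD, n = 3) against 996 ± 5.69 in IL-4 and 496 ± 88.9 in IL-13. Socs3, a target of IL-6 signaling, was 1.69 ± 0.492 in IL-4 against 129 ± 12.5 in IL-4+IL-6 and 1.27 ± 0.339 in IL-13 against 107 ± 2.35 in IL-6+IL-13. Of the 6 genes of this check, 4 were called higher and 2 lower with IL-4 (against 32.1% and 35.9% of all tested genes). With IL-13, 3 were higher and 2 lower (29.0% and 31.1%). IL-6 brought 5 higher and 1 lower on IL-4 (20.7% and 18.7%) and the same counts on IL-13 (12.1% and 13.5%). The gene lower with IL-6 was Retnla on both. The 8 macrophage markers were present in every group and were not level between groups. Their sum was between 17660 and 19800 CPM in control, 12640 and 13100 in IL-4, 15370 and 17990 in IL-13, 9463 and 11140 in IL-4+IL-6, and 12380 and 13220 in IL-6+IL-13. Of the 8, 6 were called lower with IL-4 (against 35.9% of all tested genes), and 4 lower and 2 higher with IL-13 (31.1% and 29.0%). With IL-6, 5 were lower and 3 higher on IL-4 (18.7% and 20.7%), and 2 lower and 3 higher on IL-13 (13.5% and 12.1%). The part of these markers in the results below was not tested.

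The control libraries also held transcripts of other bone marrow cells. The 9 granulocyte and precursor markers summed to between 495 and 585 CPM in control and to at most 2.89 CPM in each cytokine-treated library. Ltf, which encodes lactoferrin, was 81.8 ± 7.95 CPM in control and at most 0.109 ± 0.0587 in the other groups. The 4 B cell markers summed to between 10.2 and 10.8 CPM in control and to at most 1.55 elsewhere. The stromal markers summed to between 15.7 and 20.1 CPM in control and to at most 0.230 elsewhere. These differences run with every comparison against control below, where their part in the result was not tested, and in bulk RNA fewer cells of a type cannot be told apart from less RNA per cell.

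Promoter sequence was looked at first, because the family is known for the E-box CACGTG, the core of the site that TFEB binds. RefSeq promoter windows of GRCm38.p6, which run from 250 bases before to 50 bases after a start site, matched 44 of the 52 genes. CACGTG, which reads the same on both strands, stood in the window of 14 of these 44 genes (31.8%), against 2187 of 27025 genes with a window (8.09%). The longer form GTCACGTG, which contains it, stood in 9 (20.5%) on either strand, against 2.55% of all genes. The genes with CACGTG were 4 cathepsins (Ctsa, Ctsd, Ctsf, Ctsl), 4 glycosidases or sulfatases (Gaa, Gla, Glb1, Naglu), the membrane protein genes Lamp1 and Mcoln1, Lgmn, and the V-ATPase genes Atp6v0b, Atp6v0e and Atp6v1a. The windows of Tfeb, Tfe3 and Mitf themselves did not hold these letters. Neither did those of the 3 matched genes among the 4 grouped here under sphingolipid breakdown, a group that leaves out the glycosidases.

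Shown here are 30 bases around 1 motif per gene, 5′ to 3′ on the strand of the gene, for genes whose changes are described below, and capitals mark CACGTG. Further sites stood 45 and 28 bases before the start in Lamp1, 71 bases in Mcoln1 and 18 bases in Atp6v0b. The start of each window is that of RefSeq, and gene positions printed elsewhere are the outer bounds in GENCODE vM21, so that the stretches of Ctsl, Lgmn, Ctsd, Mcoln1, Naglu and Atp6v1a lie wholly or in part within those bounds.
Ctsl, chr13:64370739-64370768, minus strand, motif 236 bases before the start: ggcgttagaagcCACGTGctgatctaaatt
Lgmn, chr12:102439124-102439153, minus strand, 49 bases before the start: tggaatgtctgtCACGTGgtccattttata
Ctsd, chr7:142387908-142387937, minus strand, 98 bases before the start: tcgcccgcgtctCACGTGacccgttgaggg
Mcoln1, chr8:3500462-3500491, plus strand, 45 bases before the start: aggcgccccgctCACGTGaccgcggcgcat
Lamp1, chr8:13159088-13159117, plus strand, 61 bases before the start: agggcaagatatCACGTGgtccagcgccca
Naglu, chr11:101070009-101070038, plus strand, 73 bases before the start: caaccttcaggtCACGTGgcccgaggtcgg
Atp6v0b, chr4:117887348-117887377, minus strand, 36 bases before the start: gtgcgcgggggtCACGTGgggtcggcgcat
Atp6v1a, chr16:44139373-44139402, minus strand, 131 bases before the start: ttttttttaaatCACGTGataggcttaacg

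The 14 genes with the motif and the 30 with a window but without it moved as follows, where of all tested genes 35.9% were called lower and 32.1% higher with IL-4, and 20.7% higher and 18.7% lower with IL-6 on IL-4. In IL-4 over control 11 of the 14 were called lower and 1 higher, with a median log2 fold change of -0.54, and 18 of the 30 lower and 3 higher, with a median of -0.26. With IL-6 on IL-4, 5 of the 14 were called higher and 2 lower (median 0.07), and 9 of the 30 higher and 10 lower (median 0.07). In IL-6+IL-13 over IL-13 the medians were -0.01 in the 14 and -0.00 in the 30. These are counts of letters in a window beside fitted changes, with no test, and no binding was measured here.

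Lysosomal transcripts were abundant in these macrophages. In control the 52 genes held 7.72% ± 0.0735 (SD, n = 3) of the summed FPKM, 7.65%, 7.80% and 7.70% in the 3 libraries. The share was 4.74% ± 0.133 in IL-4, 4.91% ± 0.0685 in IL-13, 4.33% ± 0.0490 in IL-4+IL-6 and 4.74% ± 0.113 in IL-6+IL-13. Every control library lay above every cytokine-treated library, and every IL-4+IL-6 library lay below every IL-4 library, while IL-6+IL-13 and IL-13 libraries were apart by less, 4.61% to 4.81% against 4.83% to 4.96%. On summed counts, which weigh long transcripts more, the shares were 7.70% ± 0.130 in control, 5.26% ± 0.117 in IL-4, 5.31% ± 0.141 in IL-13, 5.32% ± 0.174 in IL-4+IL-6 and 5.54% ± 0.0558 in IL-6+IL-13, so that the direction of the difference with IL-6 depended on the unit. It also rested on 5 abundant genes. Without Psap, Ctsb, Ctsd, Ctsl and Ctss the share of FPKM was 2.49% ± 0.00961 in control, 2.00% ± 0.0456 in IL-4, 2.04% ± 0.0258 in IL-13, 2.15% ± 0.0417 in IL-4+IL-6 and 2.12% ± 0.0470 in IL-6+IL-13, so that every IL-4+IL-6 library then lay above every IL-4 library. No test was made on these sums.

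**Figure D1:**
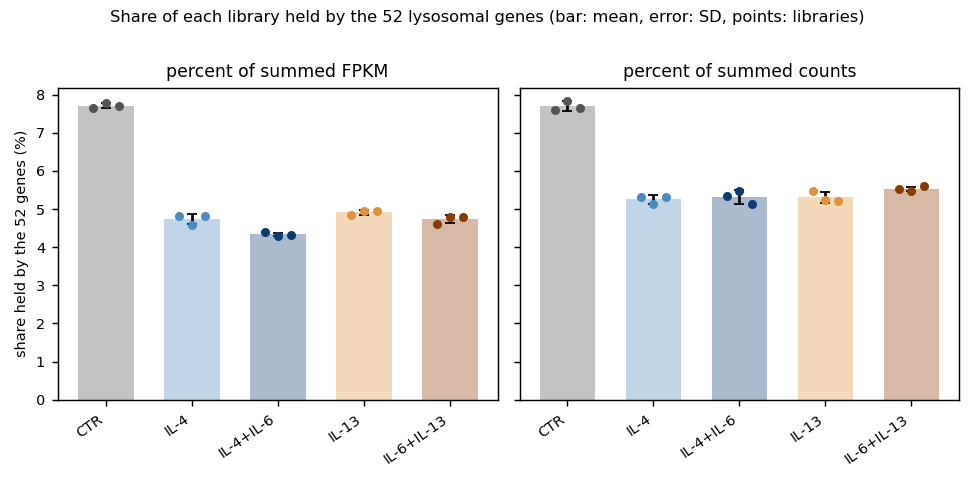
Share in % of summed FPKM (left) and of summed counts (right) held by the 52 lysosomal genes; bars are group means, error bars SD and points the 3 libraries of each group. Control stood at 7.72% of FPKM and 7.70% of counts, and the 4 cytokine-treated groups lay between 4.33% and 5.54% on both scales.

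Per gene length, a few genes made up most of this share. Psap, which encodes prosaposin, the precursor of the saposins that present sphingolipids to their hydrolases, was highest in control at 7075 ± 174 FPKM (SD, n = 3), followed by the cathepsin genes Ctss at 3687 ± 142, Ctsb at 3321 ± 56.0 and Ctsd at 2629 ± 26.1. The same order of Psap, Ctss and Ctsb held in IL-4 (3089 ± 83.5, 2752 ± 142 and 2165 ± 45.1 FPKM) and in IL-13 (2901 ± 47.0, 2643 ± 155 and 2372 ± 60.6). In both groups with IL-6 the order changed. In IL-4+IL-6 Ctsb led at 2380 ± 53.9 FPKM, followed by Ctss at 1761 ± 273, and then Psap at 1416 ± 16.0, Lgmn at 1412 ± 99.6 and Ctsl at 1400 ± 108, which did not differ beyond their spread. In IL-6+IL-13 Ctsb was 2745 ± 21.9, Ctss 2161 ± 10.8, Psap 1654 ± 43.3, Cd68 1235 ± 13.9 and Ctsl 1206 ± 37.0 FPKM. The lowest gene in every group was Ctse, which encodes an aspartic cathepsin, from 5.75 FPKM in control to 0.162 in IL-4+IL-6.

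Changes were tested with edgeR's quasi-likelihood test on the raw counts of all 15 libraries, with Benjamini-Hochberg adjustment over the 13938 genes that passed the filter on low counts, and a gene was called when its adjusted p was under 0.05. All 52 genes passed the filter, Ctse, the lowest in FPKM, at less than 20 CPM. The labels give the 3 libraries of a group as replicates and do not say whether they came from separate animals, so the p-values measure the spread between these libraries.

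Most of the 52 genes were lower with either type 2 cytokine. In IL-4 over control 33 (63.5%) were called lower, 6 (11.5%) higher and 13 were not called. The background was 35.9% of all tested genes called lower and 32.1% called higher. The median log2 fold change was -0.36 against -0.05 over all tested genes. In IL-13 over control 36 (69.2%) were called lower, 6 (11.5%) higher and 10 were not called, against 31.1% lower and 29.0% higher in the background, with a median of -0.40 against -0.02. The 6 genes called higher were Atp6v0a1, Atp6v1b2, Atp6v1h, Cd68, Ctsl and Mitf in each of these comparisons, which share the control libraries. With co-addition of IL-6 the genes moved in both directions. With IL-6 on IL-4, 19 (36.5%) were called higher and 14 (26.9%) lower, against 20.7% and 18.7% in the background, with a median of 0.09 against 0.04. In IL-6+IL-13 over IL-13, 13 (25.0%) were called higher and 6 (11.5%) lower, against 12.1% and 13.5% in the background, with a median of 0.00 against 0.01. The comparisons for IL-6 have no library in common: 9 genes were called higher in both (9 of the 19 and 9 of the 13), 6 lower in both (6 of the 14 and all 6 of the other), and no gene was called in opposite directions. Such shared calls were common over all tested genes too: 1347 were called higher in both (46.7% of those higher on IL-4 and 80.0% of those higher on IL-13). For genes called lower in both the number was 1582 (60.8% of those lower on IL-4 and 84.2% of those lower on IL-13). The overlap is therefore given as a count and not as a result about the 52 genes.

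**Figure D2:**
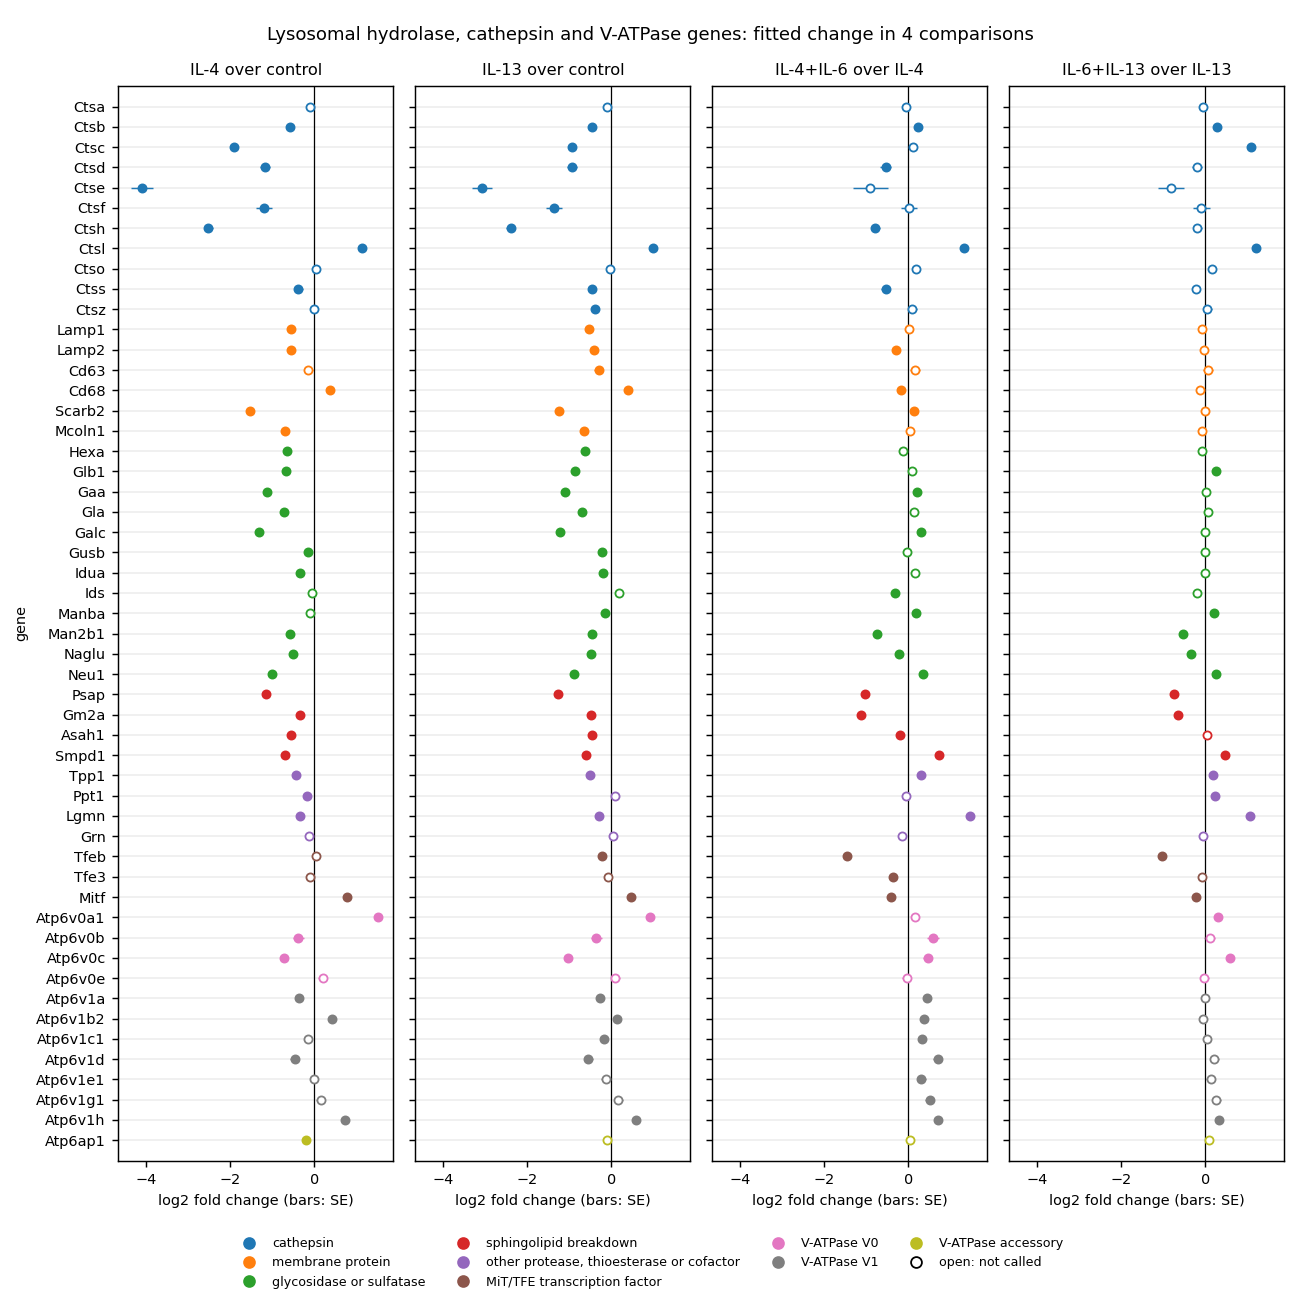
Fitted log2 fold change (x axis, bars: SE) of each of the 52 genes (rows, colored by role) in 4 comparisons; filled points passed an adjusted p of 0.05 in edgeR and open points did not. Most points lay left of 0 in the panels for IL-4 (33 called lower) and IL-13 (36 called lower), and the panels for IL-6 had points on both sides, with Ctsl and Lgmn far right and Tfeb and Psap far left.

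Ctsl was the one cathepsin gene called higher in all 4 comparisons. It encodes cathepsin L, a cysteine endopeptidase of the lysosome (chr13:64359337-64370890, minus strand, GRCm38). Its level was 1791, 1787 and 1677 CPM in control, 3788, 3689 and 4044 in IL-4 and 3731, 3373 and 3286 in IL-13. Ctsl stood at 9579, 10840 and 8529 CPM in IL-4+IL-6 and 8138, 7655 and 8251 in IL-6+IL-13. Both single-cytokine groups lay above control, and both groups with IL-6 lay above all the others, without overlap. The log2 fold change was 1.13 (SE 0.078, edgeR adjusted p = 1.17e-09) for IL-4 and 0.98 (SE 0.078, adjusted p = 9.79e-09) for IL-13 over control, and IL-6 added 1.33 (SE 0.078, adjusted p = 3.71e-10) on IL-4 and 1.21 (SE 0.078, adjusted p = 2.44e-09) on IL-13.

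Cathepsins that fell with the type 2 cytokines fell by very different amounts. Ctsh, which encodes cathepsin H, an aminopeptidase, was 424, 479 and 444 CPM in control, 79.3, 77.8 and 78.4 in IL-4 and 96.0, 77.3 and 83.6 in IL-13, with log2 fold changes of -2.52 (SE 0.11, edgeR adjusted p = 2.12e-12) and -2.39 (SE 0.11, adjusted p = 6.35e-12). Ctsh with IL-6 was 44.8, 53.2 and 38.6 in IL-4+IL-6, below every IL-4 library (log2 fold change -0.79, SE 0.11, edgeR adjusted p = 1.02e-05), and 74.5, 68.6 and 82.4 in IL-6+IL-13, which overlapped IL-13 (log2 fold change -0.19, SE 0.10, adjusted p = 0.209). Ctse, low from the start, was 16.4, 16.1 and 19.8 CPM in control, 1.45, 0.553 and 1.04 in IL-4 and 1.71, 2.59 and 1.91 in IL-13, with log2 fold changes of -4.09 (SE 0.27, edgeR adjusted p = 5.83e-10) and -3.08 (SE 0.24, adjusted p = 8.38e-09). Its level with IL-6, 0.510, 0.295 and 0.806 CPM on IL-4 and 1.45, 1.36 and 0.723 on IL-13, rests on few counts and was not called different by edgeR (log2 fold changes -0.91, SE 0.42, edgeR adjusted p = 0.0953, and -0.81, SE 0.31, adjusted p = 0.0708). Both falls of Ctse were called by the DESeq2 test (adjusted p = 0.0482 and 0.0305) and by edgeR with no filter on low counts (0.0385 and 0.0221). On IL-4 it was also called by edgeR without IL-4 replicate 2 (adjusted p = 0.028) or IL-4+IL-6 replicate 3 (0.0354). On IL-13 it was called without IL-4 replicate 2 (0.0485) or IL-4+IL-6 replicate 2 (0.0431) on IL-13. Ctsf, which encodes the cysteine cathepsin F and is also a low gene, was 11.8, 13.2 and 14.4 CPM in control, 6.10, 6.53 and 4.58 in IL-4 and 4.98, 3.60 and 6.65 in IL-13 (log2 fold changes -1.19, SE 0.18, edgeR adjusted p = 2.15e-05, and -1.36, SE 0.19, adjusted p = 6.96e-06), and its levels with IL-6 overlapped those without it.

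Ctsc, which encodes cathepsin C (dipeptidyl peptidase 1), the enzyme that activates granule serine proteases, separated IL-4 from IL-13. It was 328, 341 and 329 CPM in control, 90.9, 88.3 and 87.4 in IL-4 and 169, 180 and 173 in IL-13, so both fell, by 1.90 and by 0.93 on the log2 scale. Ctsc with IL-6 was 96.1, 101 and 92.3 on IL-4 and 372, 367 and 381 on IL-13. On IL-13 every library with IL-6 lay above every control library (log2 fold change 1.10, SE 0.055, edgeR adjusted p = 8.63e-11 against IL-13), whereas on IL-4 the rise was not called (log2 fold change 0.12, SE 0.056, adjusted p = 0.106). The difference between the effects of IL-6 was itself tested and was -0.98 (SE 0.078, edgeR adjusted p = 6.71e-07).

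Ctss, Ctsb and Ctsd were the most abundant cathepsin genes per length in control. Ctsb, which encodes cathepsin B, was 18980, 19820 and 18950 CPM in control, 13190, 12610 and 13080 in IL-4 and 14560, 13900 and 13580 in IL-13. For Ctsb the log2 fold change was -0.57 (SE 0.051, edgeR adjusted p = 3.31e-08) for IL-4 and -0.46 (SE 0.051, adjusted p = 6.67e-07) for IL-13. IL-6 raised it, to 15420, 15840 and 14540 on IL-4 (log2 fold change 0.24, SE 0.051, edgeR adjusted p = 0.00117), a call lost in a fit of only the groups compared (log2 fold change 0.20, adjusted p = 0.0521). On IL-13 Ctsb was 16960, 16940 and 17140 CPM with IL-6 (log2 fold change 0.28, SE 0.051, edgeR adjusted p = 4.34e-04), still below each control library. Ctsd, which encodes the aspartic protease cathepsin D, was 5886, 6041 and 5838 CPM in control, 2610, 2595 and 2685 in IL-4 and 3566, 2712 and 3010 in IL-13. For Ctsd the log2 fold change was -1.17 (SE 0.12, edgeR adjusted p = 3.05e-07) for IL-4 and -0.94 (SE 0.12, adjusted p = 5.41e-06) for IL-13. Ctsd with IL-6 was lower still on IL-4, at 1669, 2292 and 1482 (log2 fold change -0.54, SE 0.12, edgeR adjusted p = 0.00209), with replicate 2 nearest to the IL-4 libraries, and it overlapped on IL-13, at 2879, 2445 and 2788 (log2 fold change -0.20, SE 0.12, adjusted p = 0.289). With no filter on low counts the fall of Ctsd on IL-13 was called (edgeR adjusted p = 0.0377). Ctss, which encodes cathepsin S, the protease that trims the invariant chain for antigen presentation, was 4591, 5037 and 4762 CPM in control, 3730, 3476 and 3885 in IL-4 and 3768, 3455 and 3292 in IL-13. Ctss stood at 2315, 3140 and 2188 CPM in IL-4+IL-6 and 3023, 2958 and 3035 in IL-6+IL-13. The fall of Ctss was called for IL-4 (log2 fold change -0.38, SE 0.10, edgeR adjusted p = 0.00339), for IL-13 (log2 fold change -0.45, SE 0.10, adjusted p = 9.58e-04) and for IL-6 on IL-4 (log2 fold change -0.54, SE 0.10, adjusted p = 3.55e-04), and not for IL-6 on IL-13 (log2 fold change -0.22, SE 0.10, adjusted p = 0.126). On IL-13 the groups did not overlap, and the fall was called with no filter on low counts (edgeR adjusted p = 0.0117), in a fit of only the groups compared (0.0209) and without IL-4+IL-6 replicate 2 (0.00291). The remaining cathepsins, Ctsa, Ctso and Ctsz, had log2 fold changes between -0.39 and 0.18 in these 4 comparisons, of which only the fall of Ctsz with IL-13 was called. In all, 7 of 11 cathepsins were called lower with IL-4 and 8 with IL-13, against 35.9% and 31.1% of all tested genes, and Ctsl alone higher, against 32.1% and 29.0%.

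**Figure D3:**
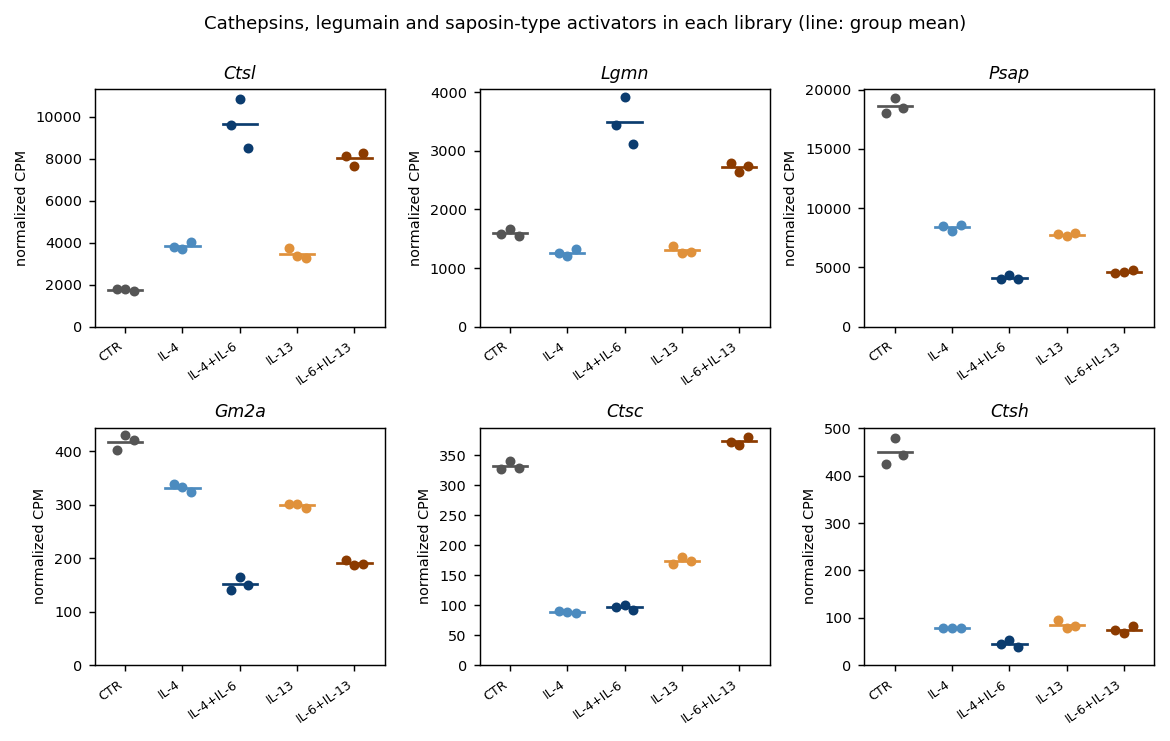
Normalized CPM (linear axis from 0) of 6 genes in each library, with a line at the group mean of 3 libraries. Ctsl rose in steps from a mean of 1752 CPM in control to 9651 in IL-4+IL-6, Lgmn was high in both groups with IL-6, Psap and Gm2a were lowest there, Ctsc was low in both groups with IL-4, and Ctsh was high in control alone.

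Lgmn, which encodes legumain, the asparaginyl endopeptidase that processes several cathepsins, showed the largest rise of the 52 genes with IL-6 on IL-4. It was 1581, 1658 and 1551 CPM in control, 1255, 1207 and 1330 in IL-4 and 1377, 1261 and 1282 in IL-13, a small fall. For Lgmn the log2 fold change was -0.34 (SE 0.073, edgeR adjusted p = 6.09e-04) for IL-4 and -0.29 (SE 0.073, adjusted p = 0.00255) for IL-13. Lgmn with IL-6 was 3434, 3911 and 3114 on IL-4 (log2 fold change 1.46, SE 0.074, edgeR adjusted p = 4.92e-11). On IL-13 Lgmn was 2792, 2643 and 2748 CPM with IL-6 (log2 fold change 1.06, SE 0.074, edgeR adjusted p = 5.94e-09). Every library with IL-6 lay above every library without it, control included. Against control the log2 fold change was 1.13 (SE 0.074, edgeR adjusted p = 3.74e-10) for IL-4+IL-6 and 0.77 (SE 0.073, adjusted p = 7.24e-08) for IL-6+IL-13.

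Grn encodes progranulin, a cofactor of lysosomal function. It was 2413, 2529 and 2554 CPM in control, 2383, 2214 and 2314 in IL-4 and 2707, 2459 and 2558 in IL-13. Grn stood at 2066, 2232 and 1946 CPM in IL-4+IL-6 and 2478, 2369 and 2609 in IL-6+IL-13, and none of the 4 comparisons was called (log2 fold changes from -0.15 to 0.04). With IL-6 on IL-4 the call depended on the setting (log2 fold change -0.15, SE 0.063, edgeR adjusted p = 0.0749): Grn was called lower under 10 of 22 alternatives, among them the DESeq2 test (adjusted p = 0.048), no filter on low counts (0.0411), at least 50 counts in 3 libraries (0.0167), upper-quartile scaling (0.007) and leaving out any 1 of 6 libraries, with the lowest value without IL-4+IL-6 replicate 2 (0.00606). Tpp1, the gene of tripeptidyl peptidase 1, was called lower with IL-4 (log2 fold change -0.44, SE 0.068, edgeR adjusted p = 2.44e-05) and IL-13 (log2 fold change -0.51, SE 0.068, adjusted p = 5.48e-06). It was called higher with IL-6 on IL-4 (log2 fold change 0.31, SE 0.068, edgeR adjusted p = 0.00149) and on IL-13 (log2 fold change 0.19, SE 0.068, adjusted p = 0.0461). Ppt1, the gene of a palmitoyl-protein thioesterase, was called lower with IL-4 (log2 fold change -0.18, SE 0.061, edgeR adjusted p = 0.0173) and higher with IL-6 on IL-13 (log2 fold change 0.23, SE 0.061, adjusted p = 0.009). The counts of Ppt1 could hold reads of Cap1, an abundant gene on the opposite strand that overlaps it, since the sources used here do not state whether counting used strand.

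The 4 genes grouped here under sphingolipid breakdown were all called lower with IL-4 and with IL-13, against 35.9% and 31.1% of all tested genes, and IL-6 then moved them apart. Psap (chr10:60277627-60302597, plus strand) was 18070, 19270 and 18460 CPM in control, 8490, 8086 and 8574 in IL-4 and 7816, 7623 and 7872 in IL-13. For Psap the log2 fold change was -1.15 (SE 0.053, edgeR adjusted p = 6.23e-12) for IL-4 and -1.26 (SE 0.053, adjusted p = 3.51e-12) for IL-13. Psap with IL-6 was 4012, 4324 and 4020 on IL-4 (log2 fold change -1.02, SE 0.053, edgeR adjusted p = 5.65e-11). On IL-13 Psap was 4550, 4606 and 4790 CPM with IL-6 (log2 fold change -0.74, SE 0.052, edgeR adjusted p = 7.48e-09). Every library with IL-6 lay below every library without it, control included. The log2 fold change of IL-4+IL-6 over control was -2.17 (SE 0.054, edgeR adjusted p = 1.42e-15).

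Gm2a, the gene of the GM2 ganglioside activator, which lifts its lipid out of the membrane for hexosaminidase A, was called lower in all 4 comparisons. It was 403, 430 and 421 CPM in control, 340, 333 and 324 in IL-4 and 302, 302 and 294 in IL-13. Gm2a stood at 141, 166 and 150 CPM in IL-4+IL-6 and 197, 188 and 189 in IL-6+IL-13. The log2 fold changes were -0.33 (SE 0.061, edgeR adjusted p = 1.40e-04), -0.48 (SE 0.061, adjusted p = 3.25e-06), -1.13 (SE 0.062, adjusted p = 1.46e-10) and -0.65 (SE 0.062, adjusted p = 3.02e-07), in the order IL-4, IL-13, IL-6 on IL-4 and IL-6 on IL-13. Smpd1, the gene of acid sphingomyelinase, went the other way with IL-6. It was 42.7, 42.5 and 39.5 CPM in control, 24.1, 26.5 and 26.9 in IL-4 and 28.0, 27.6 and 26.3 in IL-13. Smpd1 stood at 43.3, 44.8 and 39.7 CPM in IL-4+IL-6 and 38.6, 33.6 and 41.6 in IL-6+IL-13. Smpd1 fell with IL-4 (log2 fold change -0.69, SE 0.085, edgeR adjusted p = 1.78e-06) and IL-13 (log2 fold change -0.61, SE 0.085, adjusted p = 9.08e-06), rose with IL-6 (log2 fold changes 0.72, SE 0.085, adjusted p = 2.18e-06, and 0.48, SE 0.085, adjusted p = 3.53e-04) and then overlapped control. Asah1, the gene of acid ceramidase, fell further with IL-6 on IL-4 (log2 fold change -0.20, SE 0.064, edgeR adjusted p = 0.0221) and was not called on IL-13 (log2 fold change 0.03, SE 0.064, adjusted p = 0.792). Together the 4 genes held 2.26% ± 0.0320 of summed FPKM in control, 0.924% ± 0.0276 in IL-4, 0.908% ± 0.0544 in IL-13, 0.441% ± 0.0261 in IL-4+IL-6 and 0.538% ± 0.0255 in IL-6+IL-13. Nearly all of this was Psap, which alone held 2.18% in control and 0.403% in IL-4+IL-6.

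Glycosidases and sulfatases, which take sugar residues and sulfate groups off glycans and glycolipids, were called lower for 10 of 12 genes with IL-4 and 11 of 12 with IL-13, against 35.9% and 31.1% of all tested genes. Of the 12, 0 were called higher by edgeR, at an unadjusted p under 0.05 or by DESeq2, against 32.1% and 29.0%. The median log2 fold changes were -0.62 and -0.55. Galc, the galactocerebrosidase gene, fell most with IL-4. It was 241, 250 and 253 CPM in control, 102, 97.9 and 101 in IL-4 and 95.7, 113 and 108 in IL-13. For Galc the log2 fold change was -1.31 (SE 0.067, edgeR adjusted p = 2.47e-11) for IL-4 and -1.23 (SE 0.067, adjusted p = 7.63e-11) for IL-13. IL-6 raised Galc on IL-4, to 124, 126 and 121 (log2 fold change 0.30, SE 0.066, edgeR adjusted p = 0.00133), and left it within the IL-13 range on IL-13, at 107, 110 and 98.7 (log2 fold change -0.01, SE 0.066, adjusted p = 0.95).

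Man2b1 and Naglu were the members of this group that fell with IL-6 on both cytokines. Man2b1, the gene of lysosomal alpha-mannosidase, was 934, 979 and 1020 CPM in control, 684, 653 and 619 in IL-4 and 671, 717 and 741 in IL-13. Man2b1 stood at 408, 342 and 426 CPM in IL-4+IL-6 and 452, 511 and 505 in IL-6+IL-13. IL-6 lowered Man2b1 with log2 fold changes of -0.73 (SE 0.080, edgeR adjusted p = 8.65e-07) on IL-4 and -0.54 (SE 0.080, adjusted p = 5.43e-05) on IL-13, and the groups did not overlap. Naglu, whose enzyme takes part in breaking down heparan sulfate, was 236, 257 and 264 CPM in control, 182, 180 and 168 in IL-4 and 181, 178 and 187 in IL-13. Naglu stood at 152, 142 and 159 CPM in IL-4+IL-6 and 146, 142 and 145 in IL-6+IL-13, with -0.23 (SE 0.063, edgeR adjusted p = 0.0081) for IL-6 on IL-4 and -0.34 (SE 0.063, adjusted p = 5.56e-04) on IL-13. Both genes had already fallen with IL-4 (log2 fold changes of -0.58 and -0.51) and IL-13 (-0.46 and -0.47). Neu1, the sialidase gene, fell with IL-4 (log2 fold change -1.01, SE 0.066, edgeR adjusted p = 5.94e-10) and IL-13 (log2 fold change -0.88, SE 0.066, adjusted p = 4.72e-09) and rose with IL-6 (log2 fold changes 0.34, SE 0.066, adjusted p = 4.76e-04, and 0.27, SE 0.066, adjusted p = 0.00585). Manba, the beta-mannosidase gene, also rose with IL-6 (0.19 on IL-4 and 0.20 on IL-13). Of the others, Gaa (0.20) and Galc rose and Ids fell (-0.31) with IL-6 on IL-4, and Glb1 (0.25) rose with IL-6 on IL-13. Hexa, Gla, Gusb and Idua were not called in either comparison for IL-6, with log2 fold changes between -0.13 and 0.17.

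Of the 6 membrane protein genes of the lysosome, 4 were called lower and 1 higher with IL-4 (against 35.9% and 32.1% of all tested genes), and 5 lower and 1 higher with IL-13 (against 31.1% and 29.0%). Lamp1, the gene of a major glycoprotein of the lysosomal membrane, was 1800, 1821 and 1794 CPM in control, 1238, 1187 and 1241 in IL-4 and 1293, 1236 and 1216 in IL-13. For Lamp1 the log2 fold change was -0.56 (SE 0.056, edgeR adjusted p = 1.19e-07) for IL-4 and -0.53 (SE 0.056, adjusted p = 3.21e-07) for IL-13. Lamp1 with IL-6 was 1218, 1329 and 1166 on IL-4 and 1174, 1174 and 1181 on IL-13, and neither difference was called. Lamp2, whose product also serves chaperone-mediated autophagy, was 691, 717 and 694 CPM in control, 472, 465 and 497 in IL-4 and 491, 562 and 524 in IL-13. Lamp2 stood at 381, 410 and 382 CPM in IL-4+IL-6 and 520, 530 and 487 in IL-6+IL-13. Lamp2 fell with IL-4 (log2 fold change -0.55, SE 0.062, edgeR adjusted p = 5.69e-07), with IL-13 (log2 fold change -0.42, SE 0.062, adjusted p = 1.90e-05) and further with IL-6 on IL-4 (log2 fold change -0.29, SE 0.062, adjusted p = 0.00112), but on IL-13 the libraries with and without IL-6 overlapped (log2 fold change -0.04, SE 0.062, adjusted p = 0.736). Scarb2, which encodes LIMP-2, the receptor that carries glucocerebrosidase to the lysosome, fell most. It was 342, 339 and 338 CPM in control, 118, 113 and 123 in IL-4 and 141, 146 and 144 in IL-13 (log2 fold changes -1.53, SE 0.054, edgeR adjusted p = 2.43e-13, and -1.25, SE 0.053, adjusted p = 4.29e-12), and 130, 132 and 130 in IL-4+IL-6 and 143, 139 and 143 in IL-6+IL-13. Its small rise with IL-6 on IL-4 (log2 fold change 0.15, SE 0.053, edgeR adjusted p = 0.0342) was lost without any 1 of the libraries. Cd68, the macrosialin gene and a common macrophage marker, was the one called higher. It was 1293, 1340 and 1317 CPM in control, 1744, 1672 and 1688 in IL-4 and 1827, 1686 and 1657 in IL-13, higher in both (log2 fold changes 0.37, SE 0.055, edgeR adjusted p = 1.42e-05, and 0.39, SE 0.055, adjusted p = 1.05e-05), and 1522, 1564 and 1442 in IL-4+IL-6 and 1606, 1553 and 1611 in IL-6+IL-13. IL-6 lowered Cd68 on IL-4 (log2 fold change -0.17, SE 0.055, edgeR adjusted p = 0.0181), and on IL-13 the change was not called (log2 fold change -0.12, SE 0.055, adjusted p = 0.141). Cd63, a tetraspanin gene, was not called with IL-4 (log2 fold change -0.14, SE 0.11, edgeR adjusted p = 0.289) and was called lower with IL-13 (log2 fold change -0.30, SE 0.11, adjusted p = 0.0299), and its counts are uncertain because a pseudogene copy, Cd63-ps, also held counts (a mean of 1400 per library).

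The V-ATPase genes moved in both directions with IL-4 and IL-13, with shares near those of all tested genes. With IL-4, 5 of 12 (41.7%) were called lower and 3 (25.0%) higher, against 35.9% and 32.1% of all tested genes. With IL-13 the counts were the same, against 31.1% and 29.0%, and the median log2 fold changes were -0.08 and -0.11. For the 37 hydrolases, cofactors and membrane proteins the counts were 28 lower and 2 higher with IL-4 (median -0.55) and 30 lower and 2 higher with IL-13 (median -0.47), and the difference from the V-ATPase genes was not tested. With IL-6 on IL-4, 9 of 12 V-ATPase genes (75.0%, against 20.7% of all tested genes) were called higher and 0 lower by edgeR, at an unadjusted p under 0.05 or by DESeq2 (median 0.40), and all 7 V1 subunit genes were among the 9. With IL-6 on IL-13, 3 of 12 (25.0%, against 12.1%) were called higher and likewise 0 lower (median 0.12). With upper-quartile scaling 8 of 12 were called on IL-4, as Atp6v1e1 no longer passed, and the log2 fold changes of all 7 V1 genes stayed above 0. Without IL-4+IL-6 replicate 2, 9 were called higher and Atp6v0e lower. That library was the highest of its group for Atp6v0b, Atp6v0e, Atp6v1b2, Atp6v1c1, Atp6v1d, Atp6v1e1, Atp6v1g1, Atp6v1h and Atp6ap1. It was the lowest for Atp6v0a1, Atp6v0c and Atp6v1a. IL-13 replicate 1 ranked the same way among the IL-13 libraries for each of these genes but Atp6v1b2. For Atp6v1e1 it was 249 CPM against 199 and 198 in replicates 2 and 3. How far this spread bears on 9 calls against 3 was not tested.

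Atp6v0a1, which encodes an a subunit of the V0 sector, through which protons cross the membrane, rose most with IL-4. It was 424, 427 and 440 CPM in control, 1273, 1230 and 1179 in IL-4 and 749, 832 and 851 in IL-13, without overlap among the 3 groups. For Atp6v0a1 the log2 fold change was 1.51 (SE 0.074, edgeR adjusted p = 1.46e-11) for IL-4 and 0.91 (SE 0.073, adjusted p = 1.15e-08) for IL-13. Atp6v0a1 with IL-6 was 1451, 1215 and 1474 on IL-4, which overlapped IL-4 (log2 fold change 0.17, SE 0.072, edgeR adjusted p = 0.0752), and 966, 1034 and 978 on IL-13, which did not overlap IL-13 (log2 fold change 0.29, SE 0.073, adjusted p = 0.00577). Without IL-4+IL-6 replicate 2 the rise of Atp6v0a1 on IL-4 was called (edgeR adjusted p = 0.0027). Atp6v1h, the gene of the regulatory H subunit of V1, was 118, 125 and 102 CPM in control, 188, 192 and 195 in IL-4 and 185, 168 and 166 in IL-13. Atp6v1h stood at 309, 354 and 270 CPM in IL-4+IL-6 and 233, 216 and 206 in IL-6+IL-13. It was called higher in all 4 comparisons (log2 fold changes 0.74, SE 0.092, edgeR adjusted p = 2.14e-06, 0.59, SE 0.092, adjusted p = 3.29e-05, 0.70, SE 0.091, adjusted p = 7.88e-06, and 0.34, SE 0.091, adjusted p = 0.0107), on IL-13 not without IL-13 replicate 3 (adjusted p = 0.0538) or IL-6+IL-13 replicate 1 (0.0623).

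Atp6v1b2, the gene of a B subunit of the ATP-hydrolyzing head, was 756, 787 and 726 CPM in control, 1015, 966 and 1066 in IL-4 and 1253, 1387 and 1279 in IL-4+IL-6, a rise at each step (log2 fold changes 0.43, SE 0.058, edgeR adjusted p = 5.91e-06, and 0.36, SE 0.058, adjusted p = 7.01e-05). On IL-13 it was 837, 838 and 835 CPM (log2 fold change 0.15, SE 0.058, edgeR adjusted p = 0.0392) and, with IL-6, 800, 785 and 826 (log2 fold change -0.06, SE 0.058, adjusted p = 0.532). The call with IL-13 was lost without CTR replicate 1 (edgeR adjusted p = 0.0698) or 3 (0.122) or IL-13 replicate 3 (0.0533), and with a replicate block (0.0576). Atp6v1d, the gene of the central D subunit, had the largest fitted change of the V-ATPase genes with IL-6 on IL-4. It was 140, 145 and 140 CPM in control, 99.2, 97.8 and 110 in IL-4 and 155, 202 and 143 in IL-4+IL-6 (log2 fold changes -0.47, SE 0.11, edgeR adjusted p = 9.14e-04, and 0.70, SE 0.11, adjusted p = 3.78e-05), with replicate 2 the highest library. On IL-13 it was 107, 91.1 and 92.9 without and 118, 101 and 117 with IL-6, which overlapped. Atp6v1a, the gene of the catalytic A subunit, was 873, 848 and 819 CPM in control, 678, 640 and 667 in IL-4 and 889, 856 and 955 in IL-4+IL-6 (log2 fold change 0.44, SE 0.063, edgeR adjusted p = 2.10e-05), against 651, 741 and 719 in IL-13 and 699, 737 and 678 in IL-6+IL-13 (log2 fold change 0.00, SE 0.063, adjusted p = 0.988). Atp6v0c, the gene of the proteolipid ring subunit, was 41.8, 47.5 and 46.5 CPM in control, 29.3, 26.7 and 26.2 in IL-4 and 19.4, 23.5 and 23.7 in IL-13. Atp6v0c stood at 39.5, 32.1 and 41.6 CPM in IL-4+IL-6 and 33.6, 33.0 and 33.6 in IL-6+IL-13. It fell with IL-4 (log2 fold change -0.72, SE 0.10, edgeR adjusted p = 6.47e-06) and IL-13 (log2 fold change -1.03, SE 0.10, adjusted p = 1.52e-07) and rose with IL-6 (log2 fold changes 0.46, SE 0.10, adjusted p = 0.0013, and 0.59, SE 0.10, adjusted p = 2.71e-04), but its level is uncertain because the pseudogene Atp6v0c-ps2 held a mean of 152 counts per library.

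**Figure D4:**
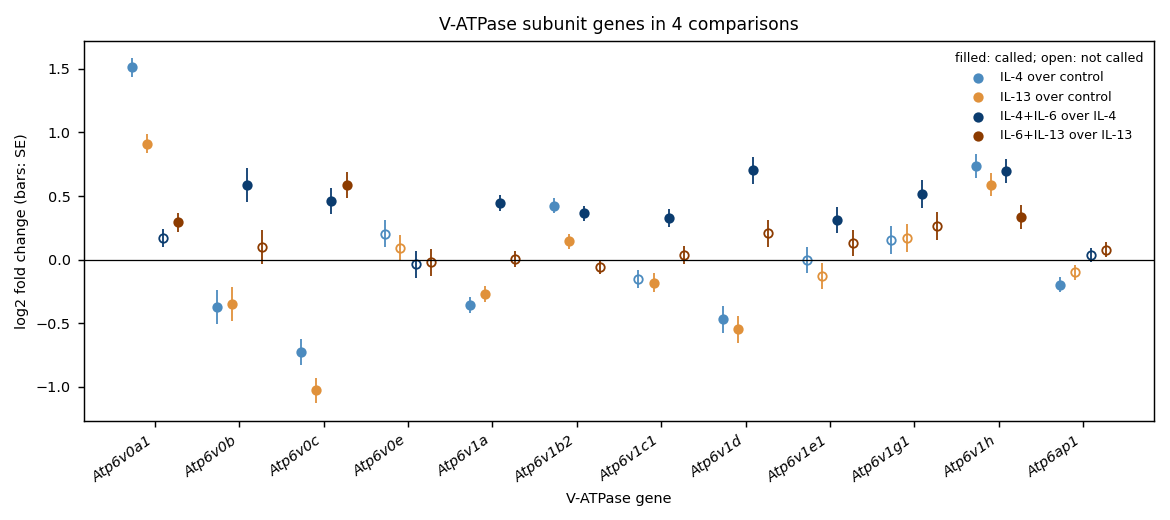
Log2 fold change (y axis, bars: SE) of the 12 V-ATPase genes in 4 comparisons, with filled points for genes called by edgeR and open points for the others. The dark blue points for IL-6 on IL-4 lay above 0 for all 7 V1 genes, from 0.31 for Atp6v1e1 to 0.70 for Atp6v1d, and the brown points for IL-6 on IL-13 lay nearer 0 for most of them.

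All 3 MiT/TFE genes among the 52 were called lower with IL-6 on IL-4, against 18.7% of all tested genes, Tfeb most of all. Tfeb (chr17:47737030-47792419, plus strand) was 74.2, 79.0 and 82.9 CPM in control, 82.2, 82.9 and 79.8 in IL-4 and 71.9, 60.9 and 68.6 in IL-13, not called with IL-4 (log2 fold change 0.05, SE 0.089, edgeR adjusted p = 0.613) and slightly lower with IL-13 (log2 fold change -0.23, SE 0.090, adjusted p = 0.0368). Tfeb with IL-6 was 26.9, 33.9 and 28.1 on IL-4 (log2 fold change -1.46, SE 0.094, edgeR adjusted p = 1.10e-09). On IL-13 Tfeb was 36.3, 30.8 and 31.4 CPM with IL-6 (log2 fold change -1.03, SE 0.093, edgeR adjusted p = 1.62e-07). These were the largest called falls of the 52 genes in each comparison for IL-6, and every library with IL-6 lay below every library without it. The call of Tfeb with IL-13 over control was borderline: it was lost with no filter on low counts (log2 fold change -0.17, edgeR adjusted p = 0.161) and without IL-13 replicate 2 (adjusted p = 0.196), CTR replicate 3 (0.144) or several other libraries. Tfe3 was 153, 162 and 159 CPM in control, 148, 150 and 143 in IL-4 and 141, 155 and 155 in IL-13. Tfe3 stood at 117, 102 and 121 CPM in IL-4+IL-6 and 135, 144 and 145 in IL-6+IL-13, and it was called lower with IL-6 on IL-4 (log2 fold change -0.37, SE 0.068, edgeR adjusted p = 2.86e-04) and in IL-4+IL-6 over control (log2 fold change -0.48, SE 0.068, adjusted p = 8.42e-06). Mitf rose with IL-4 and IL-13 and fell part of the way back with IL-6. It was 82.1, 86.0 and 85.7 CPM in control, 143, 146 and 145 in IL-4 and 102, 128 and 120 in IL-13. Mitf stood at 107, 102 and 118 CPM in IL-4+IL-6 and 95.1, 104 and 101 in IL-6+IL-13. Its log2 fold changes were 0.78 (SE 0.078, edgeR adjusted p = 1.52e-07), 0.46 (SE 0.078, adjusted p = 7.22e-05), -0.41 (SE 0.078, adjusted p = 3.48e-04) and -0.22 (SE 0.078, adjusted p = 0.0441), in the order IL-4, IL-13, IL-6 on IL-4 and IL-6 on IL-13. The calls for Tfeb, Tfe3 and Mitf with IL-6 were the same with upper-quartile scaling, with the size factors of DESeq2 and without either library that stood apart. The call of Mitf with IL-6 on IL-13 was lost without IL-13 replicate 2 (edgeR adjusted p = 0.188) or 3 (0.121), IL-6+IL-13 replicate 1 (0.144) or 3 (0.0813), CTR replicate 2 (0.0509) or 3 (0.0517), with no filter on low counts (0.0975) and in a fit of only the groups compared (0.0885).

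Mcoln1, which encodes the calcium channel TRPML1 of the lysosomal membrane, whose calcium release takes part in activating TFEB, was 104, 110 and 113 CPM in control, 70.0, 69.7 and 62.8 in IL-4 and 65.9, 69.6 and 72.3 in IL-13. Mcoln1 stood at 75.8, 63.8 and 70.2 CPM in IL-4+IL-6 and 67.3, 65.7 and 64.9 in IL-6+IL-13. It fell with IL-4 (log2 fold change -0.69, SE 0.072, edgeR adjusted p = 2.35e-07) and IL-13 (log2 fold change -0.65, SE 0.072, adjusted p = 6.05e-07), and IL-6 brought no called change (log2 fold changes 0.05, SE 0.073, adjusted p = 0.627, and -0.07, SE 0.073, adjusted p = 0.548). Tfec, the member of the family outside the 52 genes, rose with IL-6 where Tfeb fell. It was 34.3, 32.0 and 31.7 CPM in control, 14.6, 14.0 and 16.7 in IL-4 and 10.4, 9.12 and 9.53 in IL-13. Tfec stood at 251, 281 and 220 CPM in IL-4+IL-6 and 61.1, 61.5 and 63.0 in IL-6+IL-13. Tfec had fallen with IL-4 (log2 fold change -1.11, SE 0.095, edgeR adjusted p = 1.83e-08) and IL-13 (log2 fold change -1.75, SE 0.099, adjusted p = 1.34e-10). Its log2 fold change with IL-6 was 4.05 (SE 0.097, edgeR adjusted p = 4.89e-15) on IL-4 and 2.67 (SE 0.098, adjusted p = 2.29e-12) on IL-13.

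**Figure D5:**
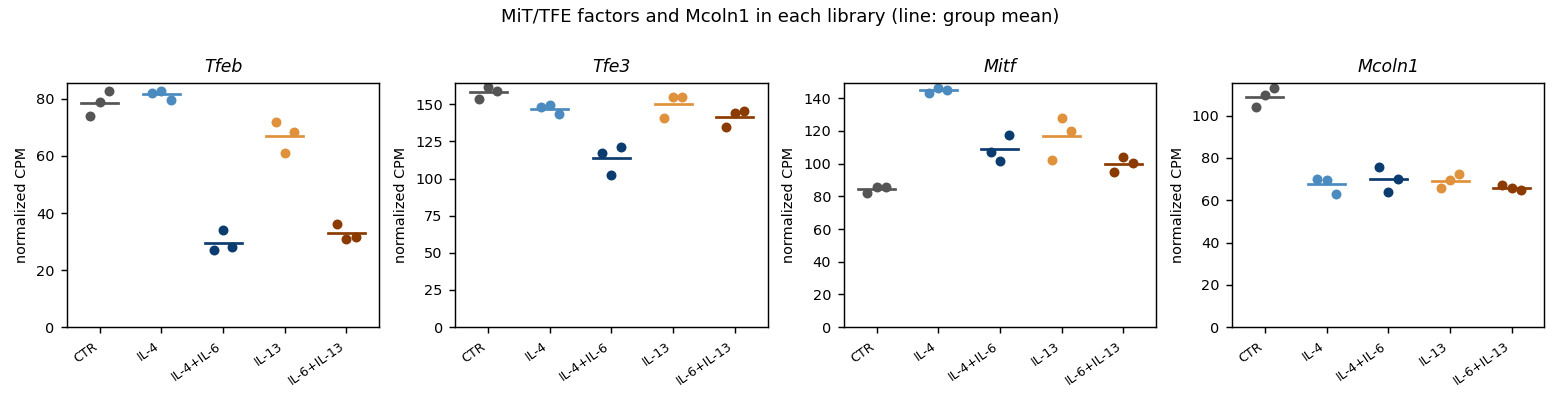
Normalized CPM (linear axis from 0) of Tfeb, Tfe3, Mitf and Mcoln1 in each library, with a line at the group mean of 3 libraries. Tfeb stood between 60.9 and 82.9 CPM in the 9 libraries without IL-6 and between 26.9 and 36.3 in the 6 with it, Mitf was highest in IL-4, and Mcoln1 was highest in control.

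Whether IL-6 acted differently on IL-4 and on IL-13 was tested as a difference of the 2 effects. Of the 52 genes, 3 (5.77%) were called higher on IL-4 than on IL-13 and 4 (7.69%) lower, against 3.22% and 4.42% of all tested genes. Atp6v1a (log2 difference 0.44, SE 0.089, edgeR adjusted p = 0.0042), Atp6v1b2 (log2 difference 0.42, SE 0.082, adjusted p = 0.00301) and Lgmn (log2 difference 0.40, SE 0.10, adjusted p = 0.0215) had the larger value on IL-4. Ctsc (log2 difference -0.98, SE 0.078, edgeR adjusted p = 6.71e-07), Ctsh (log2 difference -0.60, SE 0.15, adjusted p = 0.0169), Gm2a (log2 difference -0.48, SE 0.087, adjusted p = 0.00163) and Psap (log2 difference -0.28, SE 0.074, adjusted p = 0.0229) had the lower value on IL-4. The effects on Ctsl (log2 difference 0.12, SE 0.11, edgeR adjusted p = 0.663) and Tfeb (log2 difference -0.43, SE 0.13, adjusted p = 0.0569) were not called different. For Tfeb 6 of 21 alternatives did call the difference: DESeq2 (adjusted p = 0.0271), upper-quartile scaling (0.0323), no filter (0.013), at least 50 counts in 3 libraries (0.0251), and leaving out IL-4+IL-6 replicate 2 (0.00462) or IL-13 replicate 1 (0.0253). The call of Lgmn was lost without IL-4 replicate 1 (edgeR adjusted p = 0.051) or 2 (0.0684) or IL-6+IL-13 replicate 2 (0.0585), and that of Psap without IL-6+IL-13 replicate 3 (0.0505). The dose of IL-13 in these libraries is not given in the sources used here, so cytokine and dose cannot be told apart.

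In the co-treated cells most of the 52 genes were also lower than in control. In IL-4+IL-6 over control 32 (61.5%) were called lower and 11 (21.2%) higher, against 37.5% and 35.4% in the background, with a median log2 fold change of -0.26 against -0.05 over all genes. In IL-6+IL-13 over control 30 (57.7%) were called lower and 9 (17.3%) higher, against 32.1% and 31.9%, with a median of -0.26 against -0.01. The highest gene was Ctsl in IL-4+IL-6 (log2 fold change 2.46, SE 0.081, edgeR adjusted p = 4.54e-14) and also in IL-6+IL-13 (log2 fold change 2.19, SE 0.081, adjusted p = 3.29e-13), and the lowest was Ctse in both (log2 fold changes -5.00, SE 0.30, adjusted p = 1.12e-10, and -3.89, SE 0.26, adjusted p = 9.09e-10). V-ATPase genes were called higher for 6 of 12 and lower for 2 in IL-4+IL-6 over control, and 3 higher and 3 lower in IL-6+IL-13 over control.

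Other genes of the pathway were read from a wider list, beside the shares of all tested genes called lower and higher, which were 35.9% and 32.1% with IL-4, 31.1% and 29.0% with IL-13, 18.7% and 20.7% with IL-6 on IL-4 and 13.5% and 12.1% with IL-6 on IL-13. Of 36 further hydrolases and activators tested, 20 (55.6%) were called lower and 5 (13.9%) higher with IL-4, and 22 (61.1%) lower and 7 (19.4%) higher with IL-13. With IL-6, 14 (38.9%) were lower and 8 (22.2%) higher on IL-4, and 8 (22.2%) lower and 4 (11.1%) higher on IL-13, so that the shares called higher were near those of all tested genes. Lipa, the gene of lysosomal acid lipase, was 1805, 1834 and 1829 CPM in control, 1099, 1064 and 1086 in IL-4 and 1208, 1311 and 1260 in IL-13. Lipa stood at 350, 309 and 381 CPM in IL-4+IL-6 and 452, 465 and 444 in IL-6+IL-13. Lipa fell with IL-6 on IL-4 (log2 fold change -1.64, SE 0.067, edgeR adjusted p = 3.34e-12) and on IL-13 (log2 fold change -1.47, SE 0.067, adjusted p = 2.77e-11), without overlap. Arsb, the gene of arylsulfatase B, fell most with IL-6 in this list (log2 fold changes -1.72, SE 0.17, edgeR adjusted p = 3.84e-07, and -1.51, SE 0.16, adjusted p = 1.31e-06), after rising with IL-4 (log2 fold change 0.51, SE 0.16, adjusted p = 0.0102) and IL-13 (log2 fold change 1.31, SE 0.16, adjusted p = 1.99e-06). Hgsnat, the gene of an acetyltransferase of heparan sulfate breakdown, rose most with IL-4 (log2 fold change 1.89, SE 0.065, edgeR adjusted p = 2.05e-13) and IL-13 (log2 fold change 1.61, SE 0.065, adjusted p = 2.23e-12), from 135 ± 5.80 CPM in control to 502 ± 6.45 and 412 ± 25.4. Sgsh, the gene of another enzyme of heparan sulfate breakdown, fell with IL-4 (log2 fold change -1.97, SE 0.087, edgeR adjusted p = 4.03e-12). Hyal1, a hyaluronidase gene at under 12 CPM, rose with IL-13 (log2 fold change 0.71, SE 0.26, edgeR adjusted p = 0.0253).

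Of 30 further membrane proteins tested, 26 (86.7%) were called lower and 2 (6.67%) higher with IL-4, and 25 (83.3%) lower and 2 (6.67%) higher with IL-13. With IL-6, 7 (23.3%) were lower and 8 (26.7%) higher on IL-4, and 5 (16.7%) lower and 6 (20.0%) higher on IL-13, against 18.7% and 20.7%, and 13.5% and 12.1%, of all tested genes. Sort1, the gene of sortilin, a sorting receptor for lysosomal proteins, fell from 334, 326 and 337 CPM in control to 46.8, 45.3 and 41.8 in IL-4 (log2 fold change -2.90, SE 0.12, edgeR adjusted p = 1.14e-12) and 47.7, 60.2 and 58.2 in IL-13 (log2 fold change -2.58, SE 0.11, adjusted p = 6.56e-12). Slc11a1, the gene of the phagosomal metal transporter NRAMP1, fell with IL-4 (log2 fold change -2.39, SE 0.083, edgeR adjusted p = 2.13e-13) and IL-13 (log2 fold change -1.61, SE 0.080, adjusted p = 2.96e-11) and again with IL-6 (log2 fold changes -1.48, SE 0.086, adjusted p = 2.82e-10, and -1.20, SE 0.082, adjusted p = 4.80e-09). Cd164, which encodes endolyn, a sialomucin of endosomes and lysosomes, rose with IL-6, from 71.3, 74.2 and 71.9 CPM in IL-4 to 442, 468 and 466 in IL-4+IL-6 (log2 fold change 2.66, SE 0.065, edgeR adjusted p = 6.43e-15) and from 62.1, 71.0 and 64.6 in IL-13 to 182, 191 and 180 in IL-6+IL-13 (log2 fold change 1.48, SE 0.064, adjusted p = 1.31e-11). Abcb9, a peptide transporter gene at under 3 CPM, was called higher with IL-6 on IL-13 (log2 fold change 0.92, SE 0.25, edgeR adjusted p = 0.011).

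Of 9 further V-ATPase genes tested, 4 (44.4%) were called lower with IL-4 and 4 with IL-13, against 35.9% and 31.1% of all tested genes, and 0 were called higher by edgeR, at an unadjusted p under 0.05 or by DESeq2. With IL-6 the calls were 3 (33.3%) higher and 2 (22.2%) lower on IL-4 and 2 higher and 2 lower on IL-13. The genes called lower with IL-6 were Tcirg1, which encodes the a3 subunit of V0 (log2 fold changes -1.12, SE 0.066, edgeR adjusted p = 3.54e-10, and -0.63, SE 0.065, adjusted p = 8.39e-07), and Atp6v0d2 (log2 fold changes -0.57, SE 0.057, adjusted p = 2.99e-07, and -0.70, SE 0.057, adjusted p = 4.65e-08). Atp6v0d1, the gene of the other d subunit, was called higher (log2 fold changes 0.57, SE 0.094, edgeR adjusted p = 8.81e-05, and 0.31, SE 0.094, adjusted p = 0.019). These 3 genes were chosen after their values were seen. Genes that act with mTORC1 at the lysosome or control the MiT/TFE factors, 20 tested, were called lower for 11 (55.0%) and higher for 5 (25.0%) with IL-4 and for 10 and 4 with IL-13. With IL-6 they were higher for 7 of 20 (against 20.7% of all tested genes) and lower for 1 on IL-4 and higher for 4 (20.0%, against 12.1%) and lower for 1 on IL-13. Rragd, the gene of the RagD GTPase, rose with IL-6 on IL-4 (log2 fold change 1.31, SE 0.090, edgeR adjusted p = 2.83e-09) and was not called on IL-13 (log2 fold change 0.11, SE 0.094, adjusted p = 0.453). Lamtor1 (log2 fold change 0.74, SE 0.081, edgeR adjusted p = 3.82e-07) and Rheb (log2 fold change 0.68, SE 0.090, adjusted p = 4.45e-06) rose with IL-4. Of 22 autophagy genes, 16 (72.7%) were called lower and 2 (9.09%) higher with each of IL-4 and IL-13, against 35.9% and 31.1% of all tested genes called lower. With IL-6 the calls were 10 (45.5%) higher and 3 (13.6%) lower on IL-4 and 4 (18.2%) higher and 2 (9.09%) lower on IL-13.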

How the data were processed

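RNA of 15 BMDM libraries was sequenced by a service company (5 groups, 3 libraries each). The genotype, shared by all groups, is not reported here. The authors deposited whole-number raw counts per gene without normalization for 53465 Ensembl identifiers, and the authors deposited FPKM per library for 26080 genes, whose values equal the count over 1 length per gene and the summed counts (268061 values checked, implied lengths of a gene differing by at most 7.35e-07 of their size). Per the submitters' processing notes the build was GRCm38 and the tools named were CASAVA, Bowtie2 2.2.3, HISAT2 2.1.0, TopHat2 and DESeq2, with no role given. Whether counting used strand is not given in the sources used here; 12 of the 52 genes overlap another gene with a mean of at least 10 counts, so that reads of the overlap could be shared. Positions and symbols came from GENCODE vM21 and promoter windows from RefSeq (GRCm38.p6).

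The test on counts used edgeR 4.0.16 (R 4.3.3): filterByExpr (minimum count 10, 13938 genes kept), TMM factors, estimateDisp, glmQLFit and glmQLFTest in 1 fit of all 15 libraries without covariate, Benjamini-Hochberg adjustment over all genes kept, called under 0.05. Normalized CPM used the TMM factors. Shares of FPKM and levels in FPKM were described without a test. The script was tested on simulated data. Alternatives were the size factors of DESeq2, upper-quartile scaling, DESeq2 1.42.0, no filter, a filter of 50 counts in 3 libraries, a replicate block, a fit of only the groups compared and leaving out each library. Tables and figures used Python 3.11.15.

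Values in each library were given for the 5 largest called rises and falls among the 52 genes in each of 4 comparisons, and always for Tfeb, Tfe3, Mitf, Mcoln1, Lamp1, Lamp2, Ctsb, Ctsd, Ctsl, Ctss, Lgmn and Grn, and from the wider lists the 3 largest called changes each way were named. The genes and lists were chosen with earlier results of these data known. Summed counts between 17001352 and 18918686 limit the precision of low genes such as Ctse. T cell and erythroid markers, as lists of 4 genes each, had 0 genes past the filter and at most 0.449 and 0.887 summed CPM in any library, and the 5 mast cell and basophil markers were between 5.11 and 5.99 summed CPM in control and at most 0.236 elsewhere.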

Additional observations from a re-analysis of the deposited data

Results flagged for a closer look

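For 7 of the 52 genes the effect of IL-6 on IL-4 differed from its effect on IL-13 by edgeR's test of the difference itself (values are the log2 effect on IL-4 minus that on IL-13). The effect was lower on IL-4 for Ctsc (-0.98), Ctsh (-0.60), Gm2a (-0.48) and Psap (-0.28), 7.69% of the 52 against 4.42% of all tested genes. It was higher on IL-4 for Atp6v1a (0.44), Atp6v1b2 (0.42) and Lgmn (0.40), 5.77% against 3.22%. As given above, the calls of Lgmn and Psap were lost when certain single libraries were left out. Ctsc was 96.1, 101 and 92.3 CPM in IL-4+IL-6 and 372, 367 and 381 in IL-6+IL-13. The dose of IL-13 in these libraries is not given in the sources used here, and dose and cytokine cannot be told apart.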

How the results depend on the processing

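Over 22 alternatives the counts of called genes in the 6 comparisons between groups stayed within 1.5 times the reported counts: 29 to 35 lower with IL-4 (reported 33), 30 to 37 lower with IL-13 (36), 14 to 19 higher and 13 to 17 lower with IL-6 on IL-4 (19 and 14), and 9 to 14 higher and 5 to 9 lower with IL-6 on IL-13 (13 and 6). The counts of genes whose IL-6 effect differed between IL-4 and IL-13 were less stable. Reported as 3 higher and 4 lower on IL-4, they were 5 higher with the DESeq2 test and 5 with no filter, and 8 lower with upper-quartile scaling, 8 with the DESeq2 test, 7 with no filter and 8 with at least 50 counts in 3 libraries. Leaving out 1 library gave 2 to 7 higher (7 without IL-4+IL-6 replicate 3) and 3 to 9 lower (9 without IL-4+IL-6 replicate 2). The cause was not tested. Upper-quartile scaling moved the split of all called genes for IL-6 on IL-4 from 2885 higher and 2603 lower to 2073 and 3245, and called 15 of the 52 higher and 16 lower, with Grn newly lower (-0.23) and Scarb2 no longer higher (0.06). As a share of counts in place of FPKM the 52 genes held 5.26% in IL-4, 5.32% in IL-4+IL-6, 5.31% in IL-13 and 5.54% in IL-6+IL-13. No pairing by replicate number was seen: of 30 pairs with the same number 3 had a correlation of deviations over 0.1, and 3 of 15 libraries correlated best with their own number. This cannot show whether samples were paired or processed together. The highest correlation, 0.393, was between IL-4+IL-6 replicate 2 and IL-13 replicate 1, the libraries that stood apart from their groups. With a replicate block 18 genes were higher and 14 lower with IL-6 on IL-4, and 3 single-gene calls were lost: Tfeb (edgeR adjusted p = 0.0551) and Atp6v1b2 (0.0576) with IL-13 over control, and Scarb2 with IL-6 on IL-4 (0.0534). For the 29 genes followed singly, 3168 called values kept their call under an alternative and 60 lost it, while 1141 uncalled values stayed uncalled (19 of them moved by more than their SE) and 68 gained a call. Of the called values 0 changed sign. Depth limits Ctse, the lowest gene.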
